A study of Homo sapiens with 6 samples.

Results

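Genes of glucose uptake and glycolysis were followed through 6 MCF10A libraries. The members are SLC2A1, HK1, HK2, PFKP, PFKFB3, ALDOA, PGK1, ENO1, LDHA and PDK1, 10 of the 20802 genes counted, and they were taken as a fixed list of symbols. MCF10A is an established, benign, basal-like human mammary epithelial cell line. Its parental form (WT) was compared with a line stably transfected with the empty pIRES2eGFP plasmid (eGFP, the control) and with a line carrying the same plasmid with the coding sequence of human GIRK1, a potassium channel subunit encoded by KCNJ3 (GIRK1). Both transfected lines were selected with G418 and sorted by eGFP fluorescence, so each is a sorted population of stably transfected cells and both carry eGFP. Each condition has 2 libraries made from RNA of subconfluent cultures. Nothing in the labels says that the replicates were separate cultures, so the p-values measure only the spread between these libraries, which may be technical.

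Glucose enters a cell through carriers such as SLC2A1 (GLUT1) and is trapped as glucose-6-phosphate by hexokinases. Phosphofructokinase commits it to glycolysis, the enzymes of the lower pathway convert it to pyruvate with a gain of ATP, and pyruvate is either reduced to lactate by lactate dehydrogenase or passed to the mitochondria, an entry that pyruvate dehydrogenase kinases hold back. Many of these genes are known targets of hypoxia-inducible factors (HIF) and of MYC, and they are often raised in breast cancer cells.

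Expression was measured on 1 amplicon per gene, 99 to 121 bases long for these genes, and is given as RPM, the reads of a gene scaled to the total of its library. Amplicons differ in how well they amplify, so levels are compared between libraries and not between genes. The libraries held 5126930 and 10233974 reads (eGFP replicates 1 and 2), 11107309 and 10346572 reads (GIRK1), and 2506120 and 16040556 reads (WT). KCNJ3 had 2408 and 3677 reads in the GIRK1 libraries and 0 reads in both eGFP libraries and in WT replicate 2. The library labelled WT replicate 1 had 48 KCNJ3 reads, and it went against its label in other ways. The luminal markers ESR1, KRT19 and TFF1 had 192, 924 and 5106 RPM there and 0 reads in the other 5 libraries, and the 14 basal markers summed to 425 RPM there against 16138 to 36641 RPM in the other 5, where KRT5 and KRT14 were abundant. The amplicon of TP63, a further basal marker, had 0 reads in every library. WT replicate 1 is therefore shown apart, and the main tests used the other 5 libraries. The names of the deposited data give the GIRK1 libraries a tag that the other 4 libraries do not carry. What it stands for is not known, and tag and condition cannot be told apart.

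**Figure D1:**
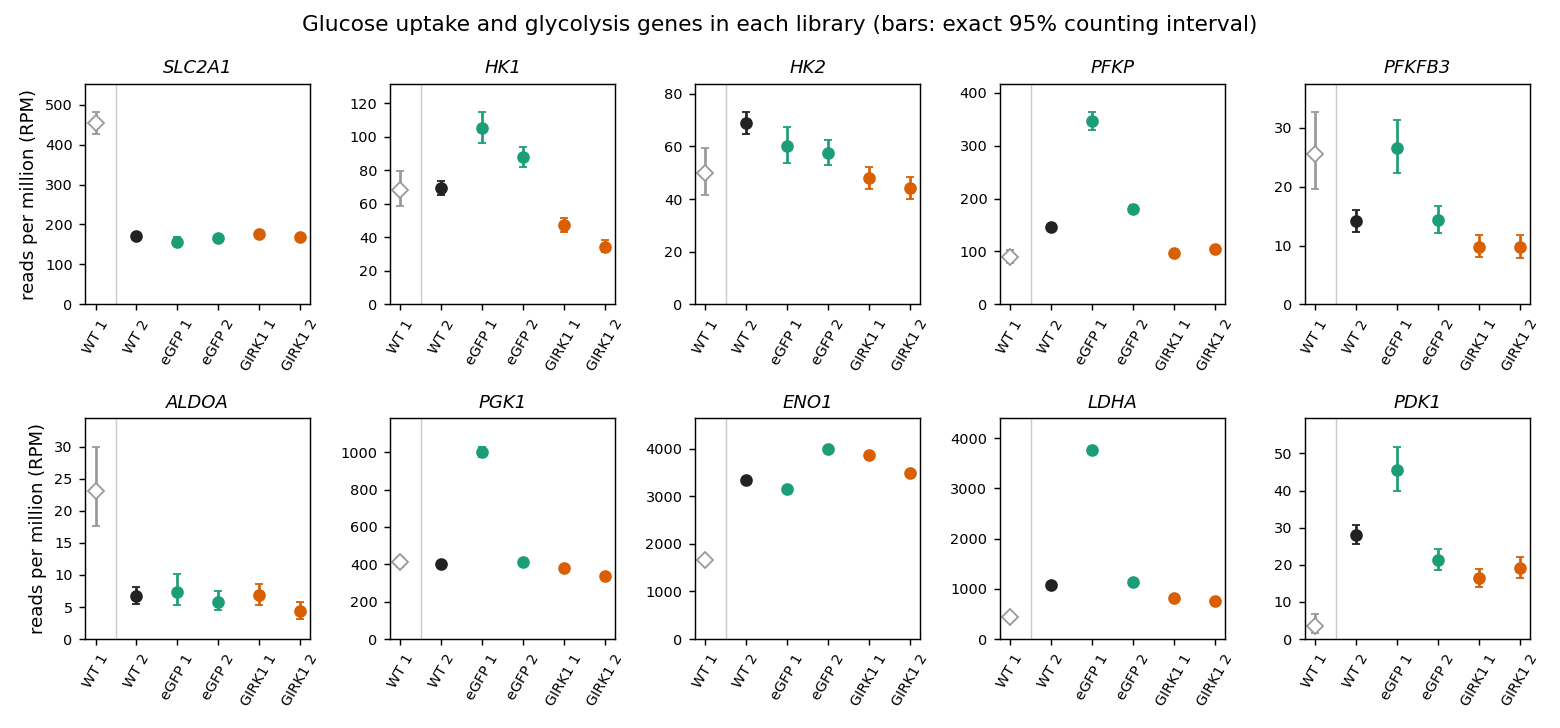
Level of each gene in RPM (vertical axes, linear, starting at 0 and scaled per gene) in the 6 libraries (horizontal axes). Points are single libraries, bars are exact (Clopper-Pearson) 95% counting intervals, and the open diamond left of the line is WT replicate 1. The GIRK1 points lie below the 3 controls on its right for HK1, HK2, PFKP, PFKFB3, PGK1, LDHA and PDK1, and eGFP replicate 1 stands far above the rest for PGK1 (999 RPM) and LDHA (3767 RPM).

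Across the group, 7 of the 10 genes had both GIRK1 libraries below both eGFP libraries and also below WT replicate 2. Over all 11779 genes tested, 24.8% lay below both eGFP libraries and 19.3% below all 3 controls, while 29.2% lay above both eGFP libraries and 21.6% above all 3 controls. The remaining members were SLC2A1, which lay above both eGFP libraries but not above WT replicate 2, and ALDOA and ENO1, whose groups overlapped. No member passed an adjusted p of 0.05 in either comparison (quasi-likelihood test in edgeR, adjusted after Benjamini and Hochberg over all genes). The share of all genes that passed was 1.60% against eGFP (0.756% higher and 0.840% lower in GIRK1) and 0.229% against WT replicate 2 (0.195% higher and 0.0340% lower). At an unadjusted p below 0.05, 6 members were lower in GIRK1 than in eGFP, where 10.7% of all genes were, and 1 member was lower than in WT replicate 2, where 3.62% of all genes were. DESeq2 on the same 5 libraries called 3 members lower against eGFP (HK1, PFKP and LDHA), where it called 3.82% of all genes lower, and 0 members against WT replicate 2, where it called 1.09% of all genes. The median log2 fold change of the members was -0.995 against eGFP and -0.47 against WT replicate 2, beside medians of 0.016 and 0.01 over all genes tested. The comparisons share the GIRK1 libraries, so they are not independent of each other. In an edgeR fit of all 6 libraries, 0 of 11546 genes passed against eGFP or against the mean of both WT libraries, while 606 and 648 had an unadjusted p below 0.05. That fit takes the unlike WT libraries as replicates of each other. KCNJ3 itself did not pass against eGFP there, with a log2 fold change of 14.4 and an adjusted p of 0.905 by edgeR. The lack of calls in that fit therefore does not show that a gene was unchanged.

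SLC2A1 (chromosome 1, 42925375 to 42959176, minus strand; all gene positions are GENCODE positions on GRCh38), the main glucose carrier of most epithelial cells, was at 156 and 166 RPM in the eGFP libraries, 177 and 168 RPM in the GIRK1 libraries and 172 RPM in WT replicate 2. These 5 libraries lay close together, with a mean of 161 ± 6.64 RPM (SD, n = 2) in eGFP and 172 ± 5.86 RPM (SD, n = 2) in GIRK1. The log2 fold change of GIRK1 against eGFP was 0.06 (95% interval -0.41 to 0.53, adjusted p = 0.896 by edgeR), and against WT replicate 2 it was 0.02 (-0.55 to 0.60). Among eGFP replicate 2, WT replicate 2 and the GIRK1 libraries, the highest level was 1.06 times the lowest, the smallest such ratio of the 10 genes.

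The hexokinases trap glucose inside the cell. HK1 (chromosome 10, 69269984 to 69401884, plus strand), the form found in most tissues, had 105 and 87.7 RPM in the eGFP libraries, 69.4 RPM in WT replicate 2 and 47.2 and 34.4 RPM in the GIRK1 libraries. Both GIRK1 libraries lay below all 3 controls, and the counting intervals of the groups did not touch. The means were 96.4 ± 12.3 RPM (SD, n = 2) in eGFP and 40.8 ± 9.03 RPM (SD, n = 2) in GIRK1. The fitted log2 fold change was -1.29 (SE 0.25, 95% interval -1.88 to -0.69), or 2.44-fold lower in GIRK1, with an unadjusted p of 0.0014 and an adjusted p of 0.0675 by edgeR. Of the 10 genes HK1 had the smallest p, and its eGFP replicates were close, at a ratio of 1.20. The call changed with the libraries and the tool, though in the fit of all 6 libraries KCNJ3 did not pass either. Without eGFP replicate 1 the log2 fold change was -1.09 with an adjusted p of 0.00439, without eGFP replicate 2 it was -1.47 with an adjusted p of 0.000634, and DESeq2 gave an adjusted p of 0.00196, whereas the edgeR fit of all 6 libraries gave 0.868. Against WT replicate 2 the log2 fold change was -0.75 (95% interval -1.45 to -0.05), with an adjusted p of 0.652 by edgeR, and HK1 was the only member with an unadjusted p below 0.05 there.

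HK2 (chromosome 2, 74833981 to 74893359, plus strand), the inducible hexokinase of muscle, fat and many tumours, had 60.3 and 57.5 RPM in the eGFP libraries, 68.8 RPM in WT replicate 2 and 48.0 and 44.1 RPM in the GIRK1 libraries. The groups did not overlap, but they were near each other. HK2's log2 fold change was -0.40 against eGFP (95% interval -0.89 to 0.10, adjusted p = 0.347 by edgeR) and -0.56 against WT replicate 2 (-1.14 to 0.03). HK2 was the member in which both eGFP libraries lay below WT replicate 2 while the GIRK1 libraries lay lower still.

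The next step is set by phosphofructokinase and by the enzyme that makes its activator. PFKP (chromosome 10, 3066333 to 3137712, plus strand), the platelet-type phosphofructokinase, had 346 and 180 RPM in the eGFP libraries, 146 RPM in WT replicate 2 and 96.3 and 104 RPM in the GIRK1 libraries. All controls were above both GIRK1 libraries, and eGFP replicate 1 had 1.92 times the level of eGFP replicate 2. The log2 fold change against eGFP was -1.45 (SE 0.35, 95% interval -2.29 to -0.62), or 2.73-fold lower in GIRK1, with an adjusted p of 0.104 by edgeR. Against eGFP replicate 2 alone it was -0.83 with an adjusted p of 0.0106, against eGFP replicate 1 alone it was -1.89 with an adjusted p of 3.37e-05, and the DESeq2 test of all 5 libraries gave an adjusted p of 0.00201. Against WT replicate 2 it was -0.52 (95% interval -1.50 to 0.47, adjusted p = 0.856 by edgeR).

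PFKFB3 (chromosome 10, 6144934 to 6254644, plus strand) makes fructose-2,6-bisphosphate, the activator of phosphofructokinase. It had 26.5 and 14.3 RPM in the eGFP libraries, 14.2 RPM in WT replicate 2 and 9.81 and 9.67 RPM in the GIRK1 libraries, from 100 to 227 reads in these 5 libraries. The GIRK1 libraries were lowest, and their counting intervals did not touch those of the controls. Against eGFP, the log2 fold change was -1.10 (95% interval -1.98 to -0.23, adjusted p = 0.184 by edgeR). It was -0.53 (adjusted p = 0.289) without eGFP replicate 1 and -1.55 (adjusted p = 0.00171) without eGFP replicate 2. The value against WT replicate 2 was -0.52 (-1.55 to 0.51).

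In the lower pathway the genes differed among themselves. ALDOA (chromosome 16, 30064164 to 30070457, plus strand), which splits fructose-1,6-bisphosphate, was read thinly, with 38 and 60 reads in the eGFP libraries (7.41 and 5.86 RPM), 108 reads in WT replicate 2 (6.73 RPM) and 76 and 45 reads in the GIRK1 libraries (6.84 and 4.35 RPM). The groups overlapped, with a log2 fold change of -0.28 against eGFP (95% interval -1.20 to 0.65, adjusted p = 0.726 by edgeR) and -0.25 against WT replicate 2 (-1.32 to 0.83). A level 2-fold lower in GIRK1 lies inside both intervals, so it was not detectable at this depth and spread.

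ENO1 (chromosome 1, 8861000 to 8879250, minus strand), the enolase of most cells, was read deeply, from 4178 reads in WT replicate 1 to 53641 in WT replicate 2. It stood at 3157 and 3992 RPM in the eGFP libraries, 3344 RPM in WT replicate 2 and 3865 and 3486 RPM in the GIRK1 libraries. The eGFP libraries enclosed the GIRK1 libraries. The log2 fold change against eGFP was 0.0048 (95% interval -0.48 to 0.49, adjusted p = 0.992 by edgeR), with a sign that turned under DESeq2's scaling, and against WT replicate 2 it was 0.16 (-0.44 to 0.76).

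PGK1 (chromosome X, 77910739 to 78129296, plus strand) makes the first ATP of the lower pathway, and LDHA (chromosome 11, 18394388 to 18408425, plus strand) reduces pyruvate to lactate. Both are long-known HIF targets. HIF dimers recognise the letters ACGTG and GCGTG, and a stretch before the start of a RefSeq transcript of each gene is shown with these letters in capitals on either strand, because PGK1 and LDHA were the members that differed most between the eGFP libraries. The sequences are RefSeq's, on GRCh38.p14, and leave out annotated exons. The PGK1 stretch lies inside the GENCODE span given above, which begins further upstream, and the LDHA stretch ends at the base before the GENCODE start.
PGK1, chrX:78103998-78104173, plus strand: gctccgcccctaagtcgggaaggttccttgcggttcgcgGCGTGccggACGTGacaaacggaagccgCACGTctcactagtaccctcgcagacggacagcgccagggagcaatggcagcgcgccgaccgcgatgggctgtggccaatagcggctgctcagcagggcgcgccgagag
LDHA, chr11:18394313-18394387, plus strand: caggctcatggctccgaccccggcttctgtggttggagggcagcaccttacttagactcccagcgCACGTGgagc
The PGK1 stretch holds ACGTG 2 times and GCGTG 1 time. The LDHA stretch holds the palindrome CACGTG, which reads ACGTG on both strands. The whole 250-base window that it opens held ACGTG 5 times, counted on both strands, and a further LDHA window, not shown, held GCGTG 1 time. PDK1 was also at least 2-fold apart between the eGFP libraries and is not shown. Its stretch before the annotated exons held neither ACGTG nor GCGTG, while the whole window of that stretch held ACGTG 2 times. Of the 25 RefSeq windows of 250 bases upstream of the starts of the 10 genes, 15 held either motif, and so did at least 1 window of 9 of the 10 genes, all but SLC2A1. Over all genes, 43.2% of 35116 such windows and 47.4% of 27305 genes held either motif. The members had more windows per gene than all genes had, which raises their share of genes with a match, so the gene shares are not directly comparable. A match is a description of the letters and not of binding, which was not measured.

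PGK1 had 999 and 411 RPM in the eGFP libraries, 403 RPM in WT replicate 2 and 379 and 339 RPM in the GIRK1 libraries. The libraries other than eGFP replicate 1 lay within a ratio of 1.21, and eGFP replicate 1 stood at 2.43 times the next. PGK1's log2 fold change against eGFP was -1.04 (SE 0.43, 95% interval -2.04 to -0.03, adjusted p = 0.253 by edgeR). Without eGFP replicate 1 it was -0.17 with an adjusted p of 0.637, and without eGFP replicate 2 it was -1.58 with an adjusted p of 0.000126. Relative to WT replicate 2 it was -0.15 (-1.36 to 1.07). LDHA and PGK1 have 6 and 1 pseudogenes named after them in the annotation, ENO1 has 4, ALDOA has 2 and HK2 has 1, and how reads that fit near-identical copies were counted is not stated, so these counts are less certain.

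LDHA had 3767 and 1146 RPM in the eGFP libraries, 1081 RPM in WT replicate 2 and 828 and 752 RPM in the GIRK1 libraries. Both GIRK1 libraries were lowest of the 5, and eGFP replicate 1 had 3.29 times the level of eGFP replicate 2. The eGFP mean of 2457 ± 1854 RPM (SD, n = 2) therefore describes neither library, against 790 ± 53.7 RPM (SD, n = 2) in GIRK1. LDHA had the largest log2 fold change against eGFP of the 10 genes, at -1.71 (SE 0.53, 95% interval -2.97 to -0.45), or 3.27-fold lower, and its adjusted p was 0.161 by edgeR and 0.00389 by DESeq2. It was -0.52 without eGFP replicate 1 (adjusted p = 0.121 by edgeR) and -2.36 without eGFP replicate 2 (adjusted p = 1.08e-05). Against WT replicate 2 it was -0.43 (95% interval -1.91 to 1.04).

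PDK1 (chromosome 2, 172555373 to 172608669, plus strand), which phosphorylates and restrains pyruvate dehydrogenase, had 45.4 and 21.2 RPM in the eGFP libraries, 28.1 RPM in WT replicate 2 and 16.4 and 19.1 RPM in the GIRK1 libraries. The GIRK1 libraries were lowest again, close under eGFP replicate 2, while eGFP replicate 1 had 2.14 times the level of eGFP replicate 2. The log2 fold change against eGFP was -0.95 (SE 0.40, adjusted p = 0.265 by edgeR), -0.24 without eGFP replicate 1 (adjusted p = 0.628) and -1.46 without eGFP replicate 2 (adjusted p = 0.00112). Relative to WT replicate 2 it was -0.64 (-1.75 to 0.48).

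**Figure D2:**
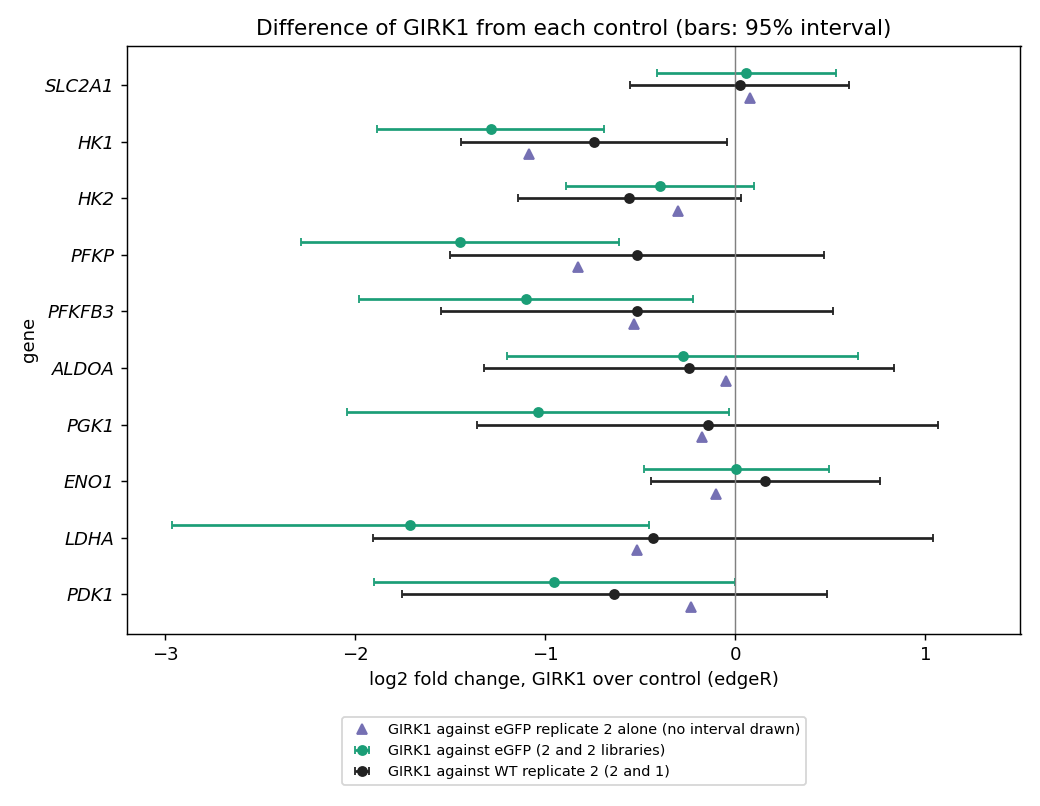
Log2 fold change of GIRK1 over each control (horizontal axis, edgeR) for the 10 genes (vertical axis). Circles with bars are the estimate and its unadjusted 95% interval against the eGFP libraries and against WT replicate 2, and triangles are the estimate against eGFP replicate 2 alone. The 2 estimates against eGFP are close for HK1 (-1.29 and -1.09) and far apart for LDHA (-1.71 and -0.52) and PGK1 (-1.04 and -0.17).

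The eGFP replicates thus set how the comparison read, gene by gene. Relative to eGFP replicate 2, eGFP replicate 1 was at least 2-fold higher for LDHA, PGK1 and PDK1, which 7.27% of all genes were, and at least 2-fold lower for no member, which 11.0% were. It was the highest of the 5 libraries for 7 of the 10 genes (HK1, PFKP, PFKFB3, ALDOA, PGK1, LDHA and PDK1), a position that 26.0% of all genes held, and it was the lowest for SLC2A1 and ENO1. HK1 and HK2 had near-equal eGFP libraries, with ratios of 1.20 and 1.05. With eGFP replicate 1 left out, 2 members passed the adjusted threshold (HK1 and PFKP, both lower in GIRK1), in a fit that called 4.65% of all genes lower. With eGFP replicate 2 left out, 6 did (HK1, PFKP, PFKFB3, PGK1, LDHA and PDK1, all lower), in a fit that called 13.8% of all genes lower. In each of these fits the remaining eGFP library had no replicate of its own, and the GIRK1 pair alone gave the spread. When the means alone were compared by a fold of at least 2 and a coefficient of variation under 0.7 in each group, the rule of the study's methods, HK1, PFKP and PFKFB3 were lower, at 2.36-fold, 2.63-fold and 2.09-fold. LDHA missed this rule because the coefficient of variation of its eGFP libraries was 0.755. The rule called 9.92% of the 13200 genes with reads in both groups in either direction, 682 of them lower and 627 higher.

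The other genes of the pathway were read from lists chosen with earlier results of these data known. Of 109 genes listed for glucose transport, glycolysis and its regulation, lactate and pyruvate handling, the pentose phosphate pathway, glycogen, HIF and MYC factors and further hypoxia-induced genes, 81 were tested. Against eGFP, 0 were higher and 2 were lower in GIRK1, and against WT replicate 2, 0 passed (edgeR's adjusted p below 0.05). At an unadjusted p below 0.05 in either direction the counts were 26 and 4 of 81, where 18.8% and 7.38% of all genes passed, and the medians of the log2 fold change were -0.42 and -0.10.

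The 2 genes that fell were no glycolytic enzymes. CA9, a carbonic anhydrase of the cell surface and a HIF target, had 59.3 and 14.8 RPM in the eGFP libraries, 6.05 RPM in WT replicate 2 and 0.900 and 0.290 RPM in the GIRK1 libraries, the last from 3 reads. Its log2 fold change was -5.97 (95% interval -8.06 to -3.88, adjusted p = 0.0308 by edgeR), and -4.57 (adjusted p = 2.03e-05) without eGFP replicate 1. EPAS1, which encodes the HIF-2 alpha subunit, had 155 and 113 RPM in eGFP, 104 RPM in WT replicate 2 and 50.1 and 42.4 RPM in GIRK1, with a log2 fold change of -1.58 (95% interval -2.20 to -0.97, adjusted p = 0.0425 by edgeR). The call of EPAS1 was lost without GIRK1 replicate 1 (-1.69, adjusted p = 0.0716) and without GIRK1 replicate 2 (-1.49, adjusted p = 0.157), while CA9 passed with any 1 of the 5 libraries left out. In the fit of all 6 libraries neither passed, with adjusted p-values of 0.883 for CA9 and 0.934 for EPAS1 (edgeR). KCNJ3 did not pass in that fit either.

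Of the other glycolytic enzymes 12 of 20 were tested, and 0 passed against either control. Of these enzymes, 5 had both GIRK1 libraries below both eGFP libraries, where 24.8% of all genes did. For 9 of them eGFP replicate 1 was the highest of the 5 libraries, a position that 26.0% of all genes held. GAPDH, which oxidises glyceraldehyde-3-phosphate, had 9856 and 7288 RPM in eGFP, 5476 RPM in WT replicate 2 and 5947 and 5257 RPM in GIRK1, and its log2 fold change was -0.66 against eGFP (adjusted p = 0.218 by edgeR) and 0.05 against WT replicate 2. It was -0.36 without eGFP replicate 1 and -0.92 (adjusted p = 0.00979) without eGFP replicate 2. GPI, the isomerase after hexokinase, had 1114 and 551 RPM in eGFP, 482 RPM in WT replicate 2 and 447 and 409 RPM in GIRK1. Its log2 fold change was -1.02 (adjusted p = 0.204 by edgeR), -0.35 (adjusted p = 0.303) without eGFP replicate 1 and -1.48 (adjusted p = 0.00019) without eGFP replicate 2. TPI1, which interconverts the triose phosphates, had 382 and 190 RPM in eGFP, 246 RPM in WT replicate 2 and 211 and 169 RPM in GIRK1. It gave -0.65 (adjusted p = 0.378 by edgeR), but 0.024 without eGFP replicate 1 and -1.11 (adjusted p = 0.0018) without eGFP replicate 2. LDHB, the other main lactate dehydrogenase subunit, gave -0.51 (adjusted p = 0.297 by edgeR), and -0.70 (adjusted p = 0.0205) without eGFP replicate 2. PKM, the pyruvate kinase of most dividing cells, was at 1.62 to 3.52 RPM in these libraries, too few reads to compare (-0.49, adjusted p = 0.644 by edgeR, and 0.060 without eGFP replicate 2). ALDOC, a further aldolase, was just over the threshold at -3.52 (adjusted p = 0.0502 by edgeR), with 149 and 41.4 RPM in eGFP, 28.6 RPM in WT replicate 2 and 9.90 and 7.44 RPM in GIRK1, and is named after its values were seen. It passed without eGFP replicate 1, at -2.24 (adjusted p = 3.06e-05), without eGFP replicate 2, at -4.21 (adjusted p = 7.53e-07), and without either GIRK1 library (adjusted p = 0.00478 and 0.00905), and DESeq2 gave an adjusted p of 5.18e-10.

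Among the carriers, the glucose carrier SLC2A3 (GLUT3) was low in all libraries, at 9.75 and 2.05 RPM in eGFP, 0.935 RPM in WT replicate 2 and 0.540 and 0.290 RPM in GIRK1. The last of these is 3 reads, the smallest level taken as detectable, so the size of the difference is uncertain. The log2 fold change of SLC2A3 was -3.80 (adjusted p = 0.110 by edgeR). It was -2.25 (adjusted p = 0.110) without eGFP replicate 1 and -4.61 (adjusted p = 0.000402) without eGFP replicate 2, and DESeq2 gave an adjusted p of 0.00245. The lactate carriers SLC16A1 (MCT1) and SLC16A3 (MCT4) gave 0.23 and -0.63 against eGFP, with adjusted p-values of 0.599 and 0.267 by edgeR, and SLC16A3 gave -0.90 (adjusted p = 0.00651) without eGFP replicate 2. TXNIP, a glucose-induced brake on glucose uptake, gave 0.32 (adjusted p = 0.646 by edgeR), but -0.082 without eGFP replicate 1 and 0.90 (adjusted p = 0.016) without eGFP replicate 2. Of the factors that drive the pathway, HIF1A had 182 and 180 RPM in eGFP, 163 RPM in WT replicate 2 and 92.0 and 100 RPM in GIRK1. Its eGFP libraries were nearly equal, unlike those of LDHA and PGK1, and its log2 fold change was -0.95 (adjusted p = 0.0835 by edgeR), or -0.89 with an adjusted p of 0.00693 without eGFP replicate 1 and -1.02 with an adjusted p of 0.0021 without eGFP replicate 2. DESeq2 gave HIF1A an adjusted p of 0.0125. MYC gave -0.62 (adjusted p = 0.218 by edgeR), with 648 and 554 RPM in eGFP and 376 and 433 RPM in GIRK1, and -0.78 (adjusted p = 0.0121) without eGFP replicate 2.

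**Figure D3:**
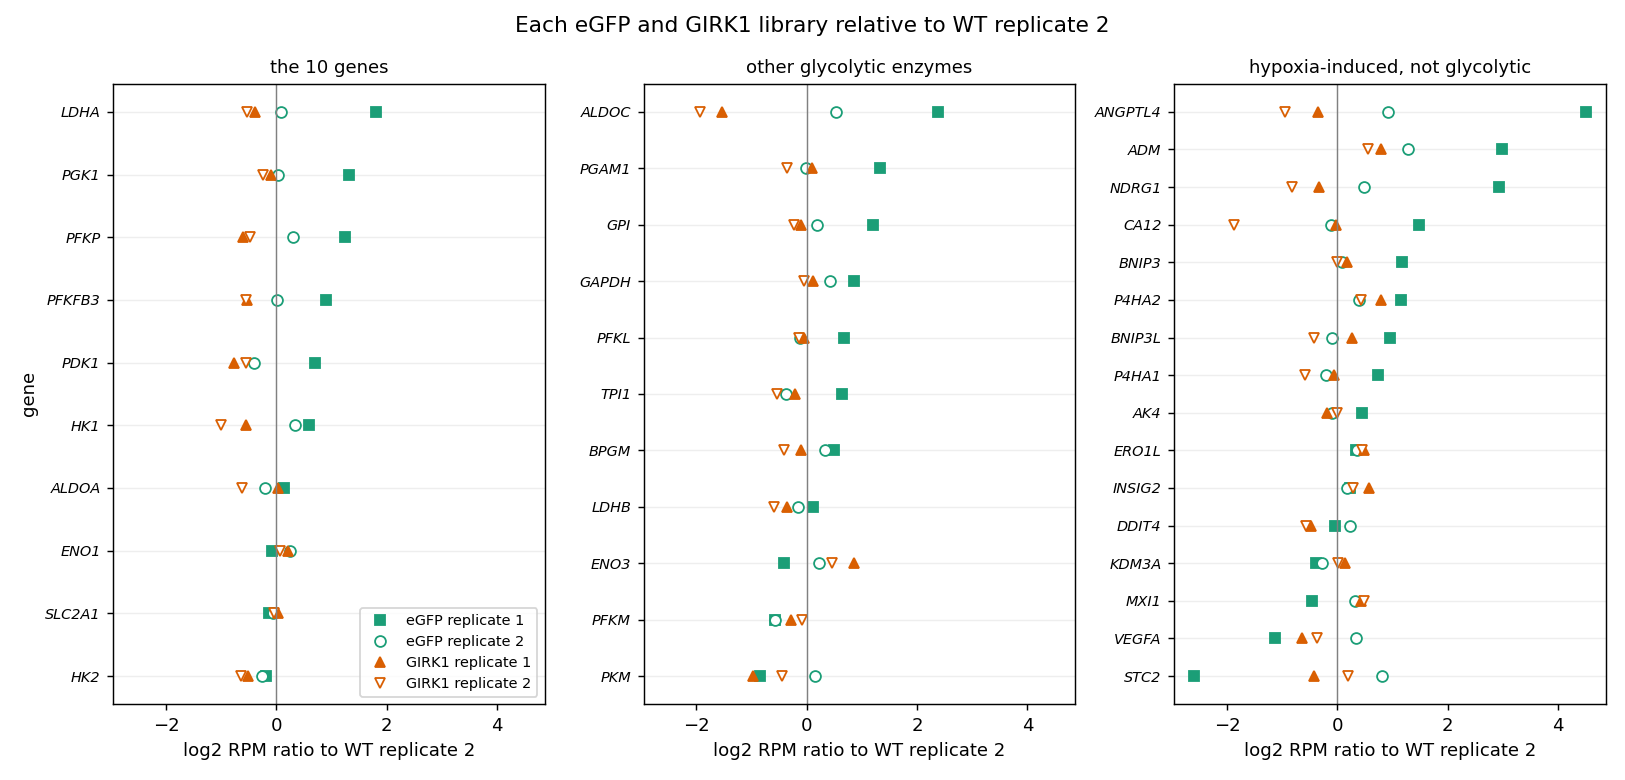
Log2 ratio of RPM to WT replicate 2 (horizontal axes) in the eGFP and GIRK1 libraries for the 10 genes, the other glycolytic enzymes and the hypoxia-induced genes outside glycolysis (vertical axes), for tested genes with over 3 reads in each of the 5 libraries. Each symbol is 1 library. The filled squares of eGFP replicate 1 lie to the right of the open circles of eGFP replicate 2 for LDHA, PGK1, ANGPTL4 and NDRG1, and to the left for VEGFA and STC2.

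Genes that respond to hypoxia outside glycolysis were set beside the members, because they share HIF as a known regulator. Of 18 tested, 11 had eGFP replicate 1 as the highest of the 5 libraries, where 26.0% of all genes did. In that library 6 stood at least 2-fold above the highest of the other 4, against 3.45% of all genes. Of the members 2 did so, LDHA and PGK1. ANGPTL4, a secreted lipase inhibitor, had 288 RPM in eGFP replicate 1 and 23.9 RPM in eGFP replicate 2. NDRG1, a stress-induced gene, had 1465 and 267 RPM, and ADM, a vasoactive peptide, had 44.3 and 13.5 RPM. Other genes of the list went the opposite way, with VEGFA at 46.0 and 127 RPM and STC2 at 67.9 and 721 RPM. The 14 basal markers also summed highest in eGFP replicate 1, at 36641 RPM against 19424 RPM in eGFP replicate 2 and 16138 to 16679 RPM in the other 3 libraries. The part of what moved these other genes, or of the depth of this library (5126930 reads), in the levels of LDHA, PGK1 and PDK1 was not tested.

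The library labelled WT replicate 1 gave another picture of the same genes. SLC2A1 stood at 453 RPM (95% interval 427 to 480) and ALDOA at 23.1 RPM, which were the highest of all 6 libraries, at 2.63 and 3.44 times the level in WT replicate 2. PFKP (89.8 RPM), ENO1 (1667 RPM), LDHA (441 RPM) and PDK1 (3.59 RPM, from 9 reads) were the lowest of the 6. HK1 (68.2 RPM), HK2 (49.9 RPM), PFKFB3 (25.5 RPM) and PGK1 (411 RPM) lay among the others. Over all genes, 37.0% had this library highest and 34.4% had it lowest, and 47.0% differed at least 2-fold between the WT libraries, as 5 of the 10 members did. Taking WT as the mean of both libraries turned the sign of SLC2A1, LDHA and PDK1 in GIRK1 against WT, to log2 fold changes of -0.75, 0.11 and 0.15 in the fit of all 6 libraries.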

How the data were processed

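RNA from MCF10A WT, eGFP and GIRK1 cells, 2 libraries each, was sequenced as Ion AmpliSeq Transcriptome amplicons. With the Ion Torrent suite, the authors mapped reads to an amplicon reference, and they deposited read counts per amplicon (unnormalized) and RPM (counts divided by the library total, checked to within 0.001). Of 20812 amplicons, 10 were spike-in rows with 0 reads and were left out. Depth ran from 2506120 to 16040556 reads, and 3 reads, the smallest level taken as detectable, equalled 0.187 to 1.20 RPM. Counting intervals (Clopper-Pearson, 95%) take in counting error alone, because reads after PCR are not separate molecules.

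Counts were tested in edgeR 4.0.16 (R 4.3.3, limma 3.58.1) with TMM scaling, filterByExpr, quasi-likelihood fits of group means on 5 libraries (without WT replicate 1) and Benjamini-Hochberg adjustment over 11779 genes at 0.05. All 10 members passed the filter. WT replicate 2, a single library, was assumed to vary like the other groups. Standard errors and intervals follow from the F value and are not adjusted for multiple tests. The scripts were tested on simulated counts of the comparison with eGFP. They recovered 17 of 70 genes changed 2-fold, 63 of 70 changed 4-fold and 60 of 60 changed 8-fold, so most 2-fold changes would be missed. The members, lists and tests were chosen with earlier results of these data known. Named genes were all members, KCNJ3, markers of cell type, a set of standard pathway genes, and listed genes with an adjusted p below 0.05. ALDOC, ANGPTL4, NDRG1, ADM, VEGFA and STC2 were named outside this rule, with their values already seen. Alternatives were DESeq2 1.42.0, all 6 libraries, other scalings, filters and thresholds, a replicate block and leaving out libraries. Covering reads and all 6 libraries with the block were added after seeing the data. Gene positions are from GENCODE on GRCh38 and were matched by symbol.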

Additional observations from a re-analysis of the deposited data

Results flagged for a closer look

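The main tests did not use WT replicate 1, though it entered the fits of all 6 libraries. In WT replicate 1, SLC2A1 stood at 453 RPM and ALDOA at 23.1 RPM, above all other libraries. KCNJ3 had 19.2 RPM there and 0 reads in the control libraries. The luminal markers summed to 19521 RPM there, against 532 to 1030 RPM in the other 5 libraries.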

How the results depend on the processing

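Against eGFP, 188 genes and 0 members passed. The count of genes was 677 with DESeq2, 865 without a filter, 107 with at least 10 reads in every library, 42 at an adjusted p below 0.01, 0 with all 6 libraries and 1309 by the 2-fold rule. The count of members was 3 with DESeq2, 3 without a filter and 3 by the 2-fold rule, and 0 with all 6 libraries. With all 6 libraries KCNJ3 did not pass either. Leaving out 1 library at a time gave 158 to 2997 genes and 0 to 6 members, the upper ends without eGFP replicate 2, and 973 genes and 2 members without eGFP replicate 1. Against WT replicate 2, 27 genes passed. The count was 128 with DESeq2, 133 without a filter, 16 with at least 10 reads in every library, 0 at an adjusted p below 0.01, 0 with all 6 libraries (both WT libraries then being the control) and 439 with only the groups compared, and leaving out 1 library gave 34 to 576. The count of members stayed 0 there in each alternative run. WT replicate 2 could not be left out of its own comparison.

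With the replicate number as a block, 549 genes and 2 members (HK1 and PFKP, both lower) passed against eGFP and 77 genes and 0 members against WT replicate 2, and with all 6 libraries and the block 0 genes passed in both. Whether libraries with the same replicate number were handled together is not stated. Across 9212 genes, the correlation of the deviations was 0.193 for eGFP and GIRK1, with 2 replicates each. It was 0.13 for eGFP and WT and 0.036 for GIRK1 and WT.

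The sign of ENO1 against eGFP turned to -0.0062 with DESeq2 and with its size factors, and ranged from -0.10 to 0.12 when 1 library was left out. In the fit of all 6 libraries, which sets GIRK1 against the mean of both WT libraries in place of WT replicate 2, the sign turned for SLC2A1 (-0.75), LDHA (0.11) and PDK1 (0.15), as it did with the block (-0.66, 0.066 and 0.33). Against WT replicate 2, ALDOA ranged from -0.59 to 0.027 when 1 library was left out. The cause was not tested. ALDOA rests on 108 reads or fewer per library, which limits what its values can show. The same holds for PDK1 in WT replicate 1 (9 reads) and for PFKFB3 in WT replicate 1 (64 reads) and GIRK1 replicate 2 (100 reads).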
